A study of Mus musculus with 6 samples.

Results

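Oligodendrocyte and myelin genes were followed in the ventromedial hypothalamus (VMH) of mice that lack FoxO1 in this nucleus. The set holds 34 genes, listed by name as known products of oligodendrocytes and their precursors. The rule uses no measured value, but the list was drawn up with earlier results of these data known. Of these, 32 had a named probe on the array and 27 had at least 1 probe detected on 3 or more of the 6 arrays, out of 10825 genes that could be tested in all. The 27 genes were read by 41 tested probes.

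The arrays compared 3 RNA pools from mice with a VMH-specific FoxO1 knockout (KO) with 3 RNA pools from wild-type mice (WT). Each pool combined the VMH of 3 animals, so a replicate is a pool and the number of arrays limits the precision. The strain background is given as mixed and no treatment was applied to either genotype. Age, sex and the Cre driver that limits the deletion to the VMH are not stated in the sources at hand, and cells of the dissected tissue outside the driver's reach keep FoxO1. RNA was read on Illumina Mouse-6 V2 BeadChips, whose probes report a fluorescence intensity. Values below are on a log2 scale after background correction, a difference is KO minus WT, and a difference of 1 is a 2-fold change.

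Oligodendrocytes wrap axons of the central nervous system in myelin, a stack of membrane layers held together by a small number of abundant proteins and rich in galactolipids. They arise from precursor cells that carry the receptor Pdgfra and the proteoglycan Cspg4 (NG2). The transcription factors Olig1, Olig2, Sox10, Nkx6-2 and Myrf guide their specification and maturation. Insulin signalling drives the transcription factor FoxO1 out of the cell nucleus, and in the VMH it is studied in neurons that regulate energy expenditure. The comparison therefore reads a cell type other than the neurons of this nucleus. In bulk RNA, fewer oligodendrocytes and less RNA per oligodendrocyte cannot be told apart.

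Promoter windows show the DNA just in front of these genes. RefSeq windows (GRCm38.p6) from 250 bases before to 50 bases after the transcription start were at hand for 23 of the 34 genes, as 31 windows, and were searched on both strands for a FoxO core motif and a SOX core motif. The FoxO motif was TGTTTAC, which reads GTAAACA on the opposite strand. The SOX motif was CTTTGT, which reads ACAAAG on the opposite strand. These motifs were chosen because FoxO1 is the deleted factor and Sox10 a member; they can overlap, but do not in the windows printed. The FoxO motif was in 1 of 31 member windows (3.23%), against 3.65% of all 32851 windows. The SOX motif was in 8 member windows (25.8%), belonging to 7 genes, against 18.7% of all windows. A match is a description of these letters and no evidence of binding. The windows of Plekhb1, Mobp and Opalin are shown, as the only member window with a FoxO match, the window with 6 SOX matches, and the window of the gene with the widest KO spread among the myelin proteins. Capitals mark the matches.
Plekhb1, second annotated start, chr7:100656916-100657215, minus strand: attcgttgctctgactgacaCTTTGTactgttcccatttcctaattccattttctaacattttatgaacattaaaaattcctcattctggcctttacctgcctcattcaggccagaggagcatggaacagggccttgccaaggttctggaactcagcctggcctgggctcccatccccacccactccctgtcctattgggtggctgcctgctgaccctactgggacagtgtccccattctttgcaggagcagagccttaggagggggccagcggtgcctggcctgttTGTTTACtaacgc
Mobp, chr9:120149492-120149791, plus strand: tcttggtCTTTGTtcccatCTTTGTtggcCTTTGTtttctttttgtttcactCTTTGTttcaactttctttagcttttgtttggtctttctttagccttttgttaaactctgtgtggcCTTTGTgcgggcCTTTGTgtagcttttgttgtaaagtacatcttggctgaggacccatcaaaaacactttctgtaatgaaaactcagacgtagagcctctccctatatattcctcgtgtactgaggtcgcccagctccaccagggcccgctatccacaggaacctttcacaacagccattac
Opalin, chr19:41077064-41077363, minus strand: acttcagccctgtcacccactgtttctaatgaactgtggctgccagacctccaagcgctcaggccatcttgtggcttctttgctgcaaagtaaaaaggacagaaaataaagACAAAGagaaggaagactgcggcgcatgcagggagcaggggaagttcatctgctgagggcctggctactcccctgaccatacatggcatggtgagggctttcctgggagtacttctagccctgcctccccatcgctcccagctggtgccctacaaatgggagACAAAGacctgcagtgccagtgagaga
In the Plekhb1 window the FoxO match began 38 bases after the start, inside the transcript, and the other Plekhb1 window had none. The Opalin window held 2 SOX matches.

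Foxo1, the targeted gene, read 6.47, 7.29 and 7.25 on its brighter probe in KO 1, 2 and 3, against 7.62, 7.49 and 7.84 in WT 1, 2 and 3. The difference on this probe was -0.645 (SE 0.24, limma adjusted p = 0.582), so it did not pass the test. Every KO pool lay below every WT pool, as for 6.79% of all tested genes, and KO 1 was the lowest. The dimmer Foxo1 probe, detected on 2 KO and 2 WT arrays, pointed the other way (0.34, SE 0.345) with overlapping pools. Where these probes lie relative to the deleted part is not known here. Nr5a1, which marks VMH neurons, was detected on all 6 arrays, at 6.07, 6.50 and 5.83 in KO, against 6.20, 6.04 and 5.76 in WT. Pool KO 1 stood apart from the rest. Its mean correlation with the other arrays was 0.954, where theirs were 0.977 to 0.981, and it had the fewest detected probes, 18771, where the others had 19381 to 20445. Summed linear signals of 17 of 18 exocrine pancreas markers, which do not belong to this tissue, were 102013, 43141 and 18552 in KO 1, 2 and 3 and 75152, 13004 and 32652 in WT 1, 2 and 3. For 13 of 15 neuron markers the sums were 68064, 91410 and 81450 in KO, against 91030, 89899 and 92755 in WT, lowest on KO 1. For 10 of 12 microglia markers they were 3720, 2934 and 2641 in KO, against 2297, 2788 and 1959 in WT, highest on KO 1. For most member genes, by brightest probe, and for most list medians, values are given with and without KO 1. Single genes outside the set, Foxo1 among them, and dimmer probes are given with all arrays only. Where KO 1 is their highest or lowest pool, the difference depends on it too. The part of these features of KO 1 in the differences was not tested.

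No member gene passed the test between the genotypes. With limma and Benjamini-Hochberg adjustment at 0.05 over all 20006 tested probes, 0 of 41 member probes were called, where 1 probe in all was (0.005%). At an unadjusted p under 0.05, 1 of the 41 member probes was higher and 0 lower in KO. Over all 20006 tested probes, 755 were higher and 761 lower at that level. Adjusted p-values of the member genes, each represented by its brightest probe, lay between 0.582 and 0.984 (Mbp). By brightest probe that count was 0 of 27 genes on either side, where 3.54% of all tested genes were higher and 2.82% lower in KO. Every KO pool lay above every WT pool for 2 members, Car2 and Gal3st1, where 8.6% of all tested genes did so. Every KO pool lay below every WT pool for 2 members, Trf and Cspg4, where 6.79% of all tested genes did so. The median difference of the 27 genes was 0.10, against 0.02 over all tested genes, and 16 of 27 (59.3%) were positive, against 52.6%. These shares lie near those of all tested genes.

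The arrays limit how large a difference could have been missed. The 95% confidence interval of the difference lay within 1 log2 of zero for 23 of the 27 genes and within 0.5 for 7. The exceptions to the wider bound were Sox10, Opalin, Nkx6-2 and Evi2a. The median interval reached 0.40 to either side of its estimate. Estimated differences ran from -0.64 (Sox10) to 0.44 (Evi2a), and 26 of 27 were smaller than 0.5 in size.

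**Figure D1:**
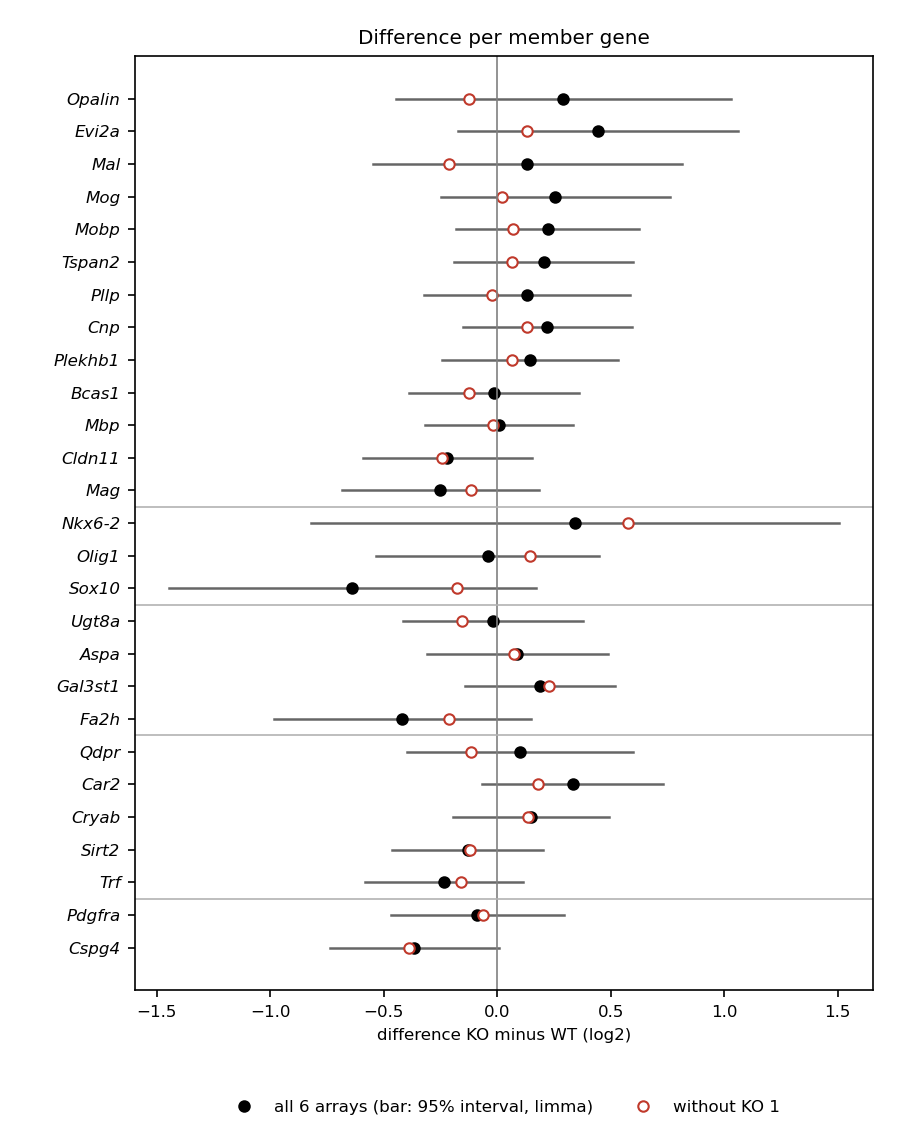
Difference KO minus WT (log2, horizontal axis) of the 27 tested member genes, grouped by role from top to bottom as myelin proteins, transcription factors, myelin lipid enzymes, other enriched proteins and precursor markers. Filled points use all 6 arrays with the 95% interval from limma and open points leave out KO 1: the intervals of all 27 genes include 0, and Opalin, Mal and Qdpr are among the genes whose point crosses 0 when KO 1 is left out.

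Structural proteins of myelin and of the oligodendrocyte membrane made up the largest role, with 13 of 14 genes tested. Mbp, which holds the cytoplasmic faces of the membrane together, read 13.94, 13.85 and 13.86 in KO 1, 2 and 3, against 13.96, 13.81 and 13.86 in WT 1, 2 and 3. Pools of both genotypes overlapped closely, and the difference of 0.01 (SE 0.14, interval -0.32 to 0.33) was the smallest in size among the members. On the linear scale as deposited, this Mbp probe had signals of 15841, 14931 and 15033 in KO, against 16058, 14525 and 14993 in WT. By brightest probe, Mbp varied least of all members over the 6 pools, by 0.15. The other Mbp probes varied by 0.38, 0.44, 0.57 and 0.73.

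Cldn11, Mag and Mobp, further structural proteins, had overlapping pools as well. Cldn11, the claudin that seals myelin with tight junctions, read 12.71, 12.75 and 12.52 in KO, against 13.08, 12.72 and 12.84 in WT, a difference of -0.22 (SE 0.16). Its highest pool was WT 1 and its lowest KO 3, and the genotypes overlapped. Mag, an adhesion molecule of the innermost membrane that faces the axon, read 10.90, 11.49 and 11.11 in KO, against 11.43, 11.28 and 11.54 in WT (difference -0.25, SE 0.19). Here KO 1 was the lowest of the 6 pools, and without it the difference was -0.12 (SE 0.17). Mobp, a basic protein of compact central myelin, read 11.43, 10.95 and 11.01 in KO, against 11.01, 10.83 and 10.89 in WT, a difference of 0.22 (SE 0.18), or 0.07 (SE 0.13) without KO 1. On this probe only KO 1 lay clearly above the other pools. On the other Mobp probes KO 1 deviated from the probe's 6-array mean by -0.06, -0.16, -0.24 and 0.25.

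Several membrane proteins shared a high value on KO 1. Opalin, a sialylated membrane glycoprotein of oligodendrocytes, read 9.83, 8.69 and 8.49 in KO, against 8.86, 8.71 and 8.58 in WT. KO 1 exceeded every other pool by 0.97 while KO 2 lay among the WT pools and KO 3 below them. The difference was 0.29 (SE 0.32) with all arrays and -0.12 (SE 0.15) without KO 1. Evi2a, a transmembrane protein, read 9.78, 8.87 and 8.82 in KO, against 8.91, 8.78 and 8.45 in WT, with KO 1 higher than the rest by 0.87. Its difference, 0.44 (SE 0.27), was the highest among the members, and 0.13 (SE 0.17) without KO 1.

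Mog, an immunoglobulin-like protein on the outer surface of myelin, read 9.86, 9.0 and 9.31 in KO, against 9.16, 9.11 and 9.13 in WT. The WT pools spanned 0.05 and the KO pools 0.86, and the difference was 0.26 (SE 0.22) with all arrays and 0.02 (SE 0.14) without KO 1. Mal, a proteolipid of membrane rafts, read 10.04, 9.16 and 8.85 in KO, against 9.51, 9.06 and 9.08 in WT. Its difference was 0.13 (SE 0.30) with all arrays and -0.21 (SE 0.19) without KO 1, so that the sign turned on this pool. The second Mal probe, at 9.24, 8.92 and 8.88 in KO and 8.92, 8.68 and 8.82 in WT, gave 0.21.

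Among the remaining members of this role, Tspan2, Pllp, Plekhb1 and Bcas1 were also highest on KO 1, by smaller gaps. The order of the other pools differed between these genes. Tspan2, a tetraspanin, stood 0.39 above the other pools on KO 1 and differed by 0.20 (SE 0.17) between genotypes, or 0.06 without KO 1. Pllp, the proteolipid plasmolipin, and Plekhb1, a protein with a pleckstrin homology domain, stood 0.16 and 0.06 above the other pools on KO 1. Their differences were 0.13 and 0.14, and -0.03 and 0.07 without KO 1. Bcas1, which marks myelinating oligodendrocytes, differed by -0.02 (SE 0.17), or -0.13 without KO 1. Ermn, a cytoskeletal protein of mature cells, had 1 probe, detected on no array.

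Cnp, an enzyme that keeps cytoplasmic channels open within myelin, was the member with the smallest unadjusted p on any probe. Its dimmer probe read 9.07, 8.70 and 8.77 in KO, against 8.36, 8.59 and 8.33 in WT. Every KO pool lay above every WT pool there, by 0.42 on average (SE 0.17). The unadjusted limma p was 0.0357 and the adjusted p 0.582. The brighter Cnp probe read 10.87, 10.47 and 10.73 in KO, against 10.41, 10.56 and 10.45 in WT, and differed by 0.22 (SE 0.16) with overlapping pools, or by 0.13 (SE 0.14) without KO 1. The call at the unadjusted level therefore rests on the probe and was not made after adjustment.

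As a group the 13 myelin protein genes had a median difference of 0.14, with 10 positive. Without KO 1 the median was -0.02 and 6 were positive. By brightest probe, their mean deviation on KO 1 from each gene's 6-array mean was 0.36. On that probe 10 of 13 had their highest value of all 6 pools on KO 1. On KO 2 and KO 3 the mean deviations were -0.07 and -0.11, inside or next to the range of the WT pools (0.002, -0.07 and -0.11).

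**Figure D2:**
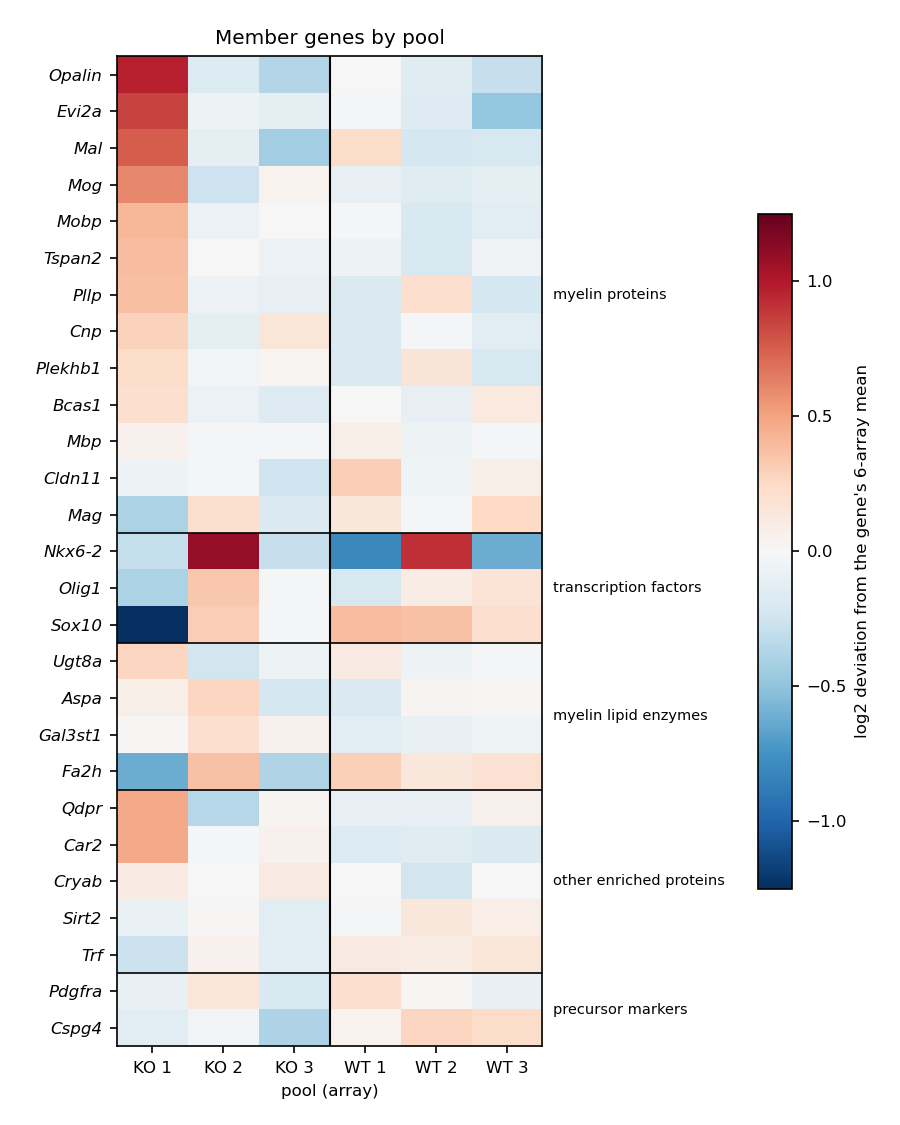
Deviation of each tested member gene (rows, grouped by role) from its mean over the 6 arrays, in log2, for pools KO 1 to KO 3 and WT 1 to WT 3 (columns). Red in the KO 1 column runs through most myelin proteins while Sox10, Olig1 and Fa2h are blue there, and Nkx6-2 is red on KO 2 and WT 2.

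Transcription factors did not share the pattern of the myelin proteins on KO 1. Sox10, which drives myelin gene transcription, read 8.37, 9.93 and 9.60 in KO, against 10.01, 9.98 and 9.83 in WT. KO 1 lay 1.23 below the lowest of the other pools, the widest gap of any member on that array, whereas KO 2 lay among the WT pools and KO 3 somewhat below them. The difference was -0.64 (SE 0.35, interval -1.45 to 0.17) and -0.18 (SE 0.15) without KO 1. Olig1, a basic helix-loop-helix factor of the lineage, read 12.40, 13.13 and 12.78 in KO, against 12.60, 12.88 and 12.97 in WT. KO 1 was again the lowest pool and KO 2 the highest, and the difference was -0.04 (SE 0.21), or 0.14 without KO 1.

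Nkx6-2, a homeodomain factor of maturing oligodendrocytes, varied more over the 6 pools than any other member, by 1.91. Its brighter probe read 8.76, 10.16 and 8.76 in KO, against 8.25, 9.97 and 8.44 in WT. Its dimmer probe read 7.90, 9.07 and 7.65 in KO, against 7.24, 9.0 and 7.39 in WT. Both probes were high on KO 2 and WT 2 and low on the other 4 pools, so the split ran across the genotypes. The difference between them was 0.34 (SE 0.51, interval -0.82 to 1.51), the least precise of the set. Of the remaining factors, Olig2 had 1 probe, detected on KO 2 alone, at a signal of 175.3, against 162.6 and 163.6 for WT 2 and WT 3. Myrf, which activates myelin genes in postmitotic cells, had 2 probes that were detected on no array. No difference between genotypes can be given for either.

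**Figure D3:**
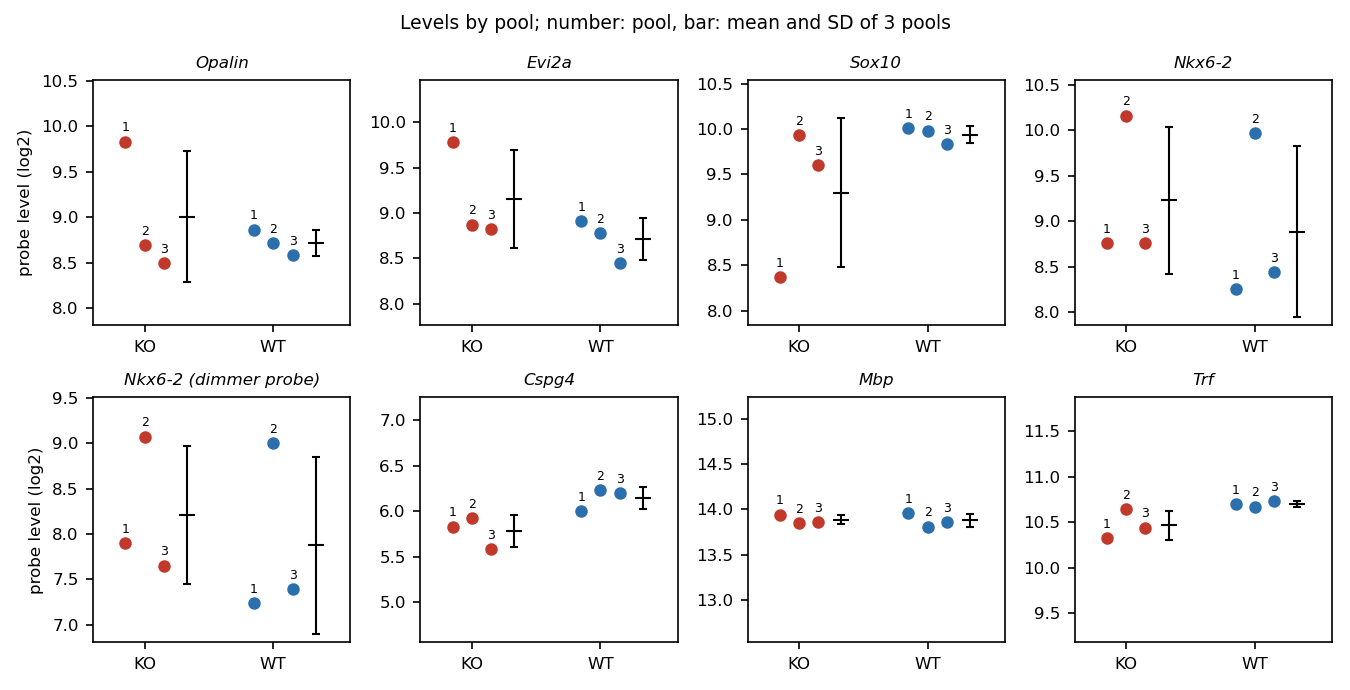
Probe level (log2, vertical axes of equal span) in each KO pool (red, left) and WT pool (blue, right) for 7 member genes, with pool numbers above the points and bars for the mean and SD of 3 pools. KO 1 is the highest pool for Opalin and Evi2a and the lowest for Sox10, KO 2 and WT 2 are high on both Nkx6-2 probes, and the genotypes do not overlap for Cspg4 and Trf.

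Enzymes of myelin lipids gave differences on both sides of zero, with a median of 0.03 over 4 genes. Ugt8a, which adds galactose to ceramide, read 9.37, 8.88 and 9.04 in KO, against 9.22, 9.05 and 9.08 in WT (difference -0.02, SE 0.17, and -0.16 without KO 1). Gal3st1, which sulfates galactosylceramide to sulfatide in the following step, read 8.13, 8.33 and 8.17 in KO, against 7.99, 8.03 and 8.06 in WT. All KO pools lay above all WT pools, by a difference of 0.19 (SE 0.15) that was 0.23 without KO 1. Fa2h, which hydroxylates the fatty acids of these lipids, read 8.48, 9.46 and 8.72 in KO, against 9.40, 9.23 and 9.29 in WT. KO 1 and KO 3 lay below the WT pools and KO 2 above them, with a difference of -0.42 (SE 0.25), or -0.21 without KO 1. Aspa, which frees acetate for lipid synthesis from N-acetylaspartate, was dim, at 5.56, 5.75 and 5.27 in KO and 5.31, 5.51 and 5.49 in WT, and was detected on 2 KO and 3 WT arrays.

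Among other proteins enriched in oligodendrocytes, 5 of 9 were tested. Car2, a carbonic anhydrase, read 9.88, 9.38 and 9.46 in KO, against 9.23, 9.25 and 9.23 in WT. The WT pools lay within 0.02 of each other and all KO pools above them, with a difference of 0.33 (SE 0.17), or 0.18 (SE 0.13) without KO 1. Trf, the iron carrier transferrin, read 10.32, 10.64 and 10.44 in KO, against 10.70, 10.67 and 10.73 in WT. All KO pools lay below the WT pools, KO 2 by little, and the difference was -0.24 (SE 0.15), or -0.16 without KO 1. The adjusted p was 0.582 for Car2 and 0.585 for Trf (limma).

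Qdpr, which regenerates tetrahydrobiopterin, read 11.37, 10.53 and 10.93 in KO, against 10.79, 10.79 and 10.94 in WT. Its KO pools included both the highest and the lowest value, and the difference turned from 0.10 to -0.11 when KO 1 was left out. Cryab, a small heat shock protein, differed by 0.15 (SE 0.15), and Sirt2, a deacetylase of tubulin, by -0.13 (SE 0.15), with overlapping pools in each. Both values were nearly the same without KO 1, at 0.13 and -0.12. Gpr37, an orphan receptor, and Gsn, the actin-severing protein gelsolin, had 2 probes each, detected on no array. Enpp2 and Apod had no named probe here.

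Both precursor markers had a negative difference on their brighter probe. Cspg4, the NG2 proteoglycan, read 5.83, 5.92 and 5.58 in KO, against 6.0, 6.23 and 6.20 in WT. Each KO pool lay below each WT pool, the difference was -0.37 (SE 0.16, interval -0.74 to 0.01), and it was -0.39 (SE 0.16) without KO 1. The unadjusted limma p was 0.0534 and the adjusted p 0.582. This probe is dim, and without background correction its difference was -0.12. Pdgfra, the receptor through which platelet-derived growth factor keeps precursors dividing, read 9.73, 9.98 and 9.63 in KO, against 10.04, 9.84 and 9.73 in WT (difference -0.09, SE 0.17). Its dimmer probe was detected on 3 KO arrays and on 0 WT arrays, so it entered the tests through KO alone. It read 5.55, 5.33 and 5.56 in KO, against 5.11, 5.38 and 5.31 in WT, near background and with overlapping pools.

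Probes of the same gene did not always point the same way. The 5 Mbp probes gave differences from -0.28 to 0.18, of which 4 were positive. The 5 Mobp probes gave -0.21 to 0.22, of which 2 were positive. Pdgfra had 1 probe on each side. Both probes agreed in sign for Mog, Cnp, Mal, Nkx6-2 and Evi2a. The second Evi2a probe gave 0.44, close to the first, with KO 1 at 7.83 and the other pools at 6.85 and 6.80 in KO and 6.69 to 6.77 in WT. The second Mog probe gave 0.09, with KO 1 at 9.49, KO 2 and KO 3 at 8.56 and 8.91, and the WT pools at 8.76 to 9.04. Which transcript each probe reads is not known here.

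The KO pools differed more among themselves than the WT pools for most members and for most of all tested genes, and leaving out KO 1 narrowed this. The level of the whole set in a pool, the mean deviation of its 27 genes from their 6-array means, was 0.11, 0.05 and -0.11 in KO 1, 2 and 3, against -0.02, 0.02 and -0.05 in WT 1, 2 and 3. It thus spanned 0.22 over the KO pools and 0.06 over the WT pools, and all WT pools lay inside the KO range. The KO span was 0.16 without KO 1 and 0.06 without KO 3, in that last case no wider than that of WT. Gene by gene, the median SD of the members was 0.25 over KO pools and 0.11 over WT pools. All tested genes gave 0.26 over KO pools and 0.14 over WT pools, with the same order. The SD was larger in KO than in WT for 21 of 27 members, and for 74.7% of all tested genes. Without KO 1, a choice made after seeing the data, the median KO SD was 0.14 for the members and for all tested genes alike. The KO SD then exceeded the WT SD for 16 of 27 members and 47.1% of all tested genes. This sets an SD over KO 2 and KO 3 alone against an SD over 3 WT pools, which is not a like comparison.

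The level of KO 1 combined members on both sides. By brightest probe, KO 1 lay above all 5 other pools for 13 members, below all of them for 5 and between them for 9. It was the highest pool for 48.1% of the members and for 38% of all tested genes, and the lowest for 18.5% and 33.3%. The 13 highest were 10 myelin proteins with Qdpr, Car2 and Ugt8a, and the 5 lowest were Sox10, Fa2h, Mag, Olig1 and Trf. The 3 tested transcription factors averaged -0.64 on KO 1, while the myelin proteins averaged 0.36. Sox10 was at -1.246, Olig1 at -0.392 and Nkx6-2 at -0.295. The 2 closest lists given below did not share either value on KO 1. Other genes of mature oligodendrocytes averaged 0.020 there and other regulators of the lineage 0.008. KO 3, which resembled the other arrays in its overall correlation (0.98), was the lowest pool for 8 members (29.6%, against 9.47% of all tested genes) and the highest for 1 (3.7%, against 8.98%).

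The sign of the set's median rested on KO 1. Without this pool the median difference of the 27 genes was -0.025, with 12 positive, against 0.007 over all tested genes. The median was 0.14 for the 3 transcription factors, -0.04 for the 4 lipid enzymes, -0.11 for the 5 other enriched proteins and -0.23 for the 2 precursor markers, the last as with all arrays. Among the genes named above, Opalin, Mal, Pllp, Qdpr, Mbp and Olig1 changed sign.

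Further genes of the lineage were read from lists of related function. Of 33 tested of 40 other genes of mature oligodendrocytes, 0 passed limma's adjusted threshold. At an unadjusted p under 0.05, 1 was higher and 0 lower, where 3.54% and 2.82% of all tested genes were. Of the 33, 19 were positive (57.6%), against 52.6% of all tested genes. The median was 0.01 with all arrays and without KO 1. S1pr5, a sphingolipid receptor of oligodendrocytes, read 6.70, 6.66 and 6.29 in KO, against 6.10, 6.19 and 5.60 in WT, with each KO pool above each WT pool (difference 0.59, SE 0.21, limma adjusted p = 0.582). Its dimmer probe, detected on all 6 arrays, differed by 0.014 (SE 0.16) with overlapping pools. Phldb1 lay on the other side, at 7.26, 8.26 and 8.05 in KO, against 8.57, 8.13 and 8.64 in WT (difference -0.59, SE 0.27), with overlapping pools. Ppp1r14a, a phosphatase inhibitor, and Plxnb3, a semaphorin receptor, differed by 0.51 and -0.30.

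Other precursor genes lay on both sides of zero. Of 12 tested of 16, 0 passed. Unadjusted, 0 were higher and 1 lower, where 3.54% and 2.82% of all tested genes were. Of the 12, 4 were positive (33.3%), against 52.6% of all tested genes. The median was -0.18, or -0.14 with 5 positive without KO 1. Gpr17, a receptor of precursors committed to differentiation, read 8.91, 9.75 and 9.67 in KO, against 9.82, 10.13 and 10.11 in WT. Every KO pool lay below every WT pool, with a difference of -0.58 (SE 0.24, limma adjusted p = 0.582). Matn4, a matrix protein, was also below WT in every KO pool, at 7.87, 8.02 and 8.20 in KO and 8.41, 8.24 and 8.47 in WT, while its dimmer probe differed by -0.21 with overlapping pools. Lhfpl3 and Neu4 lay on the other side, by 0.35 and 0.14. In this list 3 of 12 genes had all KO pools below all WT pools, where 6.79% of all tested genes did so.

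Of the regulators of the lineage 15 of 18 were tested and 0 passed, adjusted or not, with 7 positive and a median of -0.01, or 0.05 without KO 1. Zeb2, a repressor that promotes myelination, differed by 0.57 (SE 0.31; 0.13 on its dimmer probe) and Id2, which restrains differentiation, by 0.47 (SE 0.26). Sox6 and Lingo1, both inhibitors of maturation, differed by -0.69 (SE 0.36) and -0.20 (SE 0.26), with overlapping pools in each. The Sox6 probe was dim and detected on 1 KO and 2 WT arrays. Of 12 enzymes that make or degrade myelin sphingolipids, 11 were tested. By brightest probe 0 passed either threshold, and the median was -0.06 with and without KO 1. A dimmer Sgms1 probe, detected on 2 KO and 3 WT arrays, differed by -1.15 (SE 0.39) with overlapping pools. Its limma p was 0.0167 unadjusted and 0.582 adjusted, while the brightest Sgms1 probe differed by -0.055 (SE 0.16). Elovl1, which elongates very long chain fatty acids, read 8.04, 8.04 and 8.06 in KO, against 8.32, 8.23 and 8.25 in WT, without overlap (difference -0.22, SE 0.14). The pools overlapped on its 3 other tested probes, which differed by -0.14, 0.09 and -0.04. Galc, which degrades galactosylceramide, differed by -0.24, Kdsr by 0.15 and Asah1 by 0.14.

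Genes of the axon at and beside the node of Ranvier, where myelin meets the axon, had the lowest median of these lists. Of 9 tested of 10, 0 passed. Unadjusted, 0 were higher and 1 lower, where 3.54% and 2.82% of all tested genes were. Of the 9, 8 were negative and 11.1% positive, where 52.6% of all tested genes were positive. The median was -0.43, or -0.22 without KO 1. Scn8a, the nodal sodium channel, read 5.72, 6.74 and 6.37 in KO, against 6.85, 6.99 and 6.98 in WT (difference -0.66, SE 0.25, limma adjusted p = 0.582). Its dimmer probe differed by -0.43 (SE 0.28) with overlapping pools. Kcna2, a potassium channel beside the paranode, read 7.91, 8.60 and 8.31 in KO, against 8.77, 8.63 and 8.70 in WT. On the Kcna2 probe and the brighter Scn8a probe, KO 1 was the lowest pool and no KO pool overlapped the WT pools. Cntn1, an adhesion molecule of the paranode, differed by 0.006. The list's mean deviation was -0.60 on KO 1, where the neuron marker sum was also lowest, and 0.10 and -0.09 on KO 2 and KO 3. The part of neuronal RNA in this was not tested.

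Genes of peripheral myelin, made by Schwann cells, were mostly at background. Of 7 genes, 3 were tested, with a median of 0.11. Pmp22 differed by 0.19, Egr2 by 0.11 and Ncmap by -0.30. Egr2 was spread widely in both genotypes, at 5.69, 6.42 and 6.90 in KO, against 5.39, 6.26 and 7.03 in WT.

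**Figure D4:**
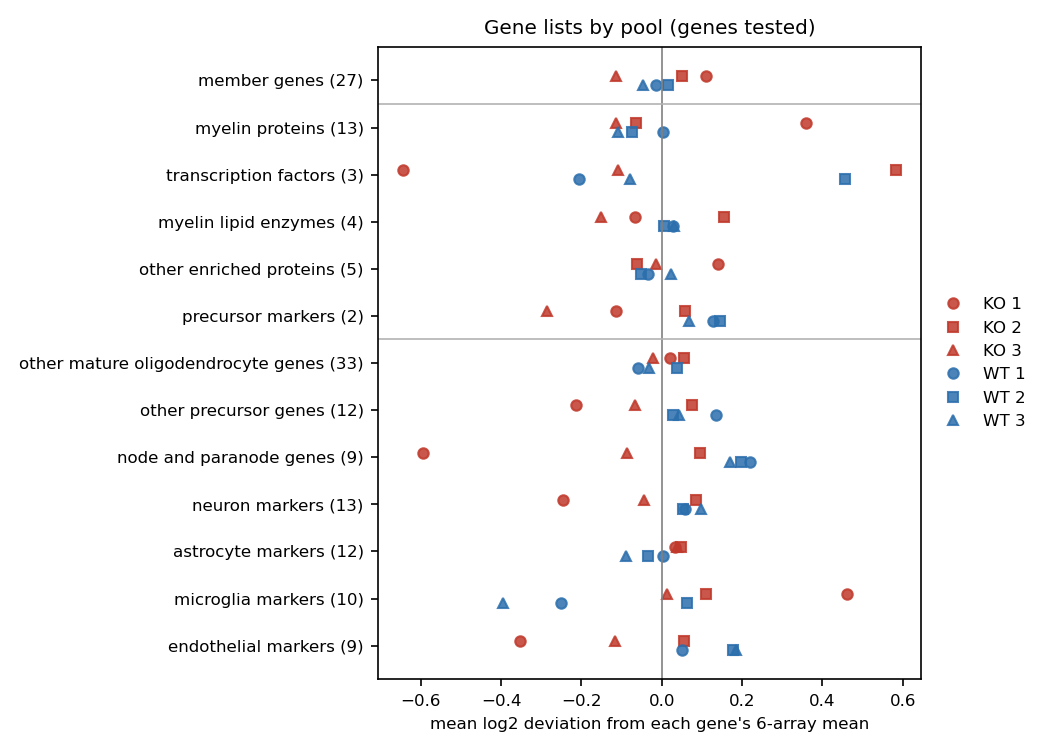
Mean log2 deviation from each gene's 6-array mean (horizontal axis) of the member genes, of their 5 roles, of further lineage lists and of markers of other cell types, for each KO pool (red) and WT pool (blue), with the number of tested genes in parentheses and the symbol giving the pool number. On KO 1 the myelin proteins lie at 0.36 and the other mature oligodendrocyte genes at 0.02. Transcription factors lie at -0.64 there and node and paranode genes at -0.60.

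Markers of other cells in the tissue are given beside these values. Astrocyte markers, 12 tested, had a median difference of 0.06 and mean deviations between -0.09 (WT 3) and 0.05 (KO 2). Microglia markers, 10 tested, had a median of 0.49 (0.25 without KO 1) and endothelial markers, 9 tested, one of -0.33 (-0.22 without KO 1). Red blood cell markers, 5 tested, had a median of 0.62, with summed signals of 16035, 18242 and 19342 in KO, against 13716, 13216 and 11762 in WT. Neuron markers had a median of -0.15, or -0.01 without KO 1. Of these 5 lists 0 genes passed limma's adjusted threshold. At an unadjusted p under 0.05 microglia and red blood cell markers had 3 higher genes each. Astrocyte markers had 1 higher gene and endothelial markers 1 lower gene. Of all tested genes, 3.54% were higher and 2.82% lower at that level. The part of these cell types in the values of the member genes was not tested.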

How the data were processed

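Total RNA of 6 VMH pools was labelled as biotinylated cRNA and hybridised to 6 arrays. Partek Genomics Suite 6.5 is named in the series' design text, and how it normalized the arrays is not stated in the sources at hand. Per the file headers, the deposited table gives every probe a linear intensity and, for each array, a detection p-value. The deposited intensity values had already been quantile-normalized, since the sorted arrays differ by at most 0.4 (range 111.3 to 41187.7), and had not been background-subtracted. The authors' log2 table is the log2 of the same signals (largest gap 5e-05), neither centred nor turned into ratios. The headers do not say what the detection p-value is set against; it was taken to be each array's negative controls.

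With limma 3.58.1 in R 4.3.3, neqc corrected the background (normexp, offset 16), applied quantile normalization and took log2. Testing was limited to the 20006 of 45281 probes whose detection p was under 0.05 on 3 or more of the 6 arrays. A single symbol was found for 34885 probes, several for 18 and none here for 10378, and symbols were looked up in RefSeq (GRCm38.p6), which changed 0. The array files name no build, so genes are given without positions except the RefSeq promoter windows. KO and WT were compared with lmFit and eBayes, 2-sided, without covariates, with Benjamini-Hochberg adjustment over all tested probes, and the procedure was tested on simulated data. The brightest tested probe stood for a gene. SD and n are over pools, and the SE and the 95% interval come from the model.

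Named genes were every member, and of each further list those called or, with none called, the 2 in each direction with the smallest p, with Foxo1 and Nr5a1. A further item of this rule is not reported here. The members and lists were chosen with earlier results of these data known. The dimmer Cnp and Sgms1 probes and the details of single pools were singled out after their values were seen. Alternatives covered background correction, normalization, the authors' log2 table, filters, probe choice, the variance model, the replicate block and leaving out each array. Exocrine pancreas markers were listed because such transcripts had been seen in these arrays.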

Additional observations from a re-analysis of the deposited data

How the results depend on the processing

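Of the member genes 0 passed the adjusted threshold under every alternative run, and 0 of 27 had an unadjusted p under 0.05; the lowest adjusted p of any member was 0.371. Over all probes the count past the threshold was 1, and 0 without background correction, with an offset of 50, with cyclic loess, in the authors' log2 table, without a filter, with the strict filter, with the mean over probes, with an intensity trend and with the replicate block. It was 0 to 1 when 1 array was left out and 1516 at an unadjusted p. The shared numbers were not taken to pair pools. Deviations of KO and WT pools with the same number correlated by 0.209, -0.026 and 0.393 over the brightest probes of all tested genes. KO 1 correlated best with WT 1 and KO 3 with WT 3, while KO 2 correlated by -0.002, -0.026 and 0.032 with WT 1, 2 and 3. What the shared numbers stand for is not known here.

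The median difference of the members, 0.10, was -0.009 with array weights, 0.006 without both arrays numbered 1 (a setting chosen after seeing the data) and -0.025 to 0.126 when 1 array was left out; the lowest value is that without KO 1. Positive members numbered 16, with 11 under array weights and 12 without KO 1. The range of the set's level over the KO pools was 0.060 to 0.222 and over the WT pools 0.031 to 0.064 when 1 array was left out, the lowest with KO 3 or WT 3 left out, which leaves fewer pools to span. The causes were not tested.

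Of 511 member values under the alternatives, 31 had the opposite sign, in 12 genes, and 15 genes kept their sign throughout. With cyclic loess Mbp was -0.007. With the mean over probes Mobp was -0.022 and Pdgfra 0.063. Under array weights Aspa was -0.045, Mal -0.177, Mbp -0.006, Opalin -0.052 and Qdpr -0.009. Without both arrays numbered 1, Mal was -0.064, Olig1 0.032, Opalin -0.048, Pdgfra 0.023, Pllp -0.084 and Qdpr -0.138. Leaving out 1 array at a time gave -0.212 to 0.385 for Mal, -0.024 to 0.049 for Mbp, -0.224 to 0.142 for Olig1, -0.123 to 0.548 for Opalin, -0.025 to 0.268 for Pllp, -0.114 to 0.305 for Qdpr, -0.026 to 0.219 for Aspa, -0.126 to 0.063 for Bcas1, -0.121 to 0.885 for Nkx6-2 and -0.156 to 0.089 for Ugt8a. Dim probes such as those of Aspa and Cspg4 lie near background, where the size of a difference depends on the background correction.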

Other observations

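Nkx6-2 stood high on KO 2 and WT 2, and some genes outside the oligodendrocyte set were high on the same pools. They were picked after their values were seen, as the 4 tested genes with the highest correlation with Nkx6-2 over the 6 pools among genes that spanned over 1 log2, and a search over so many genes finds such likeness in 6 pools easily. Gadd45gip1, a mitochondrial protein, read 6.17, 8.57 and 6.19 in KO 1, 2 and 3, against 5.63, 8.03 and 5.89 in WT 1, 2 and 3. Ssbp4 read 8.37, 9.06 and 8.22 in KO, against 8.19, 8.97 and 8.05 in WT. Ncoa4, a receptor for the turnover of ferritin, read 6.97, 7.51 and 6.68 in KO, against 6.55, 7.59 and 6.69 in WT. Ctsc, a lysosomal protease, read 7.19, 7.69 and 6.45 in KO, against 6.49, 7.64 and 6.31 in WT. In each of these genes KO 2 and WT 2 were the highest pools. What KO 2 and WT 2 share beside their number is not known here.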
